A study of Rattus norvegicus with 6 samples.

Results

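Hepcidin and its partners set how much iron a cell takes up, stores and releases, and 10 rat genes of iron handling were followed here: Hamp, Slc40a1, Cp, Tfrc, Tf, Slc11a2, Hfe, Fth1, Ftl1 and Hmox1. A gene was measured where at least 1 probe set of the array carried its symbol and no other, which gave 9 of the 10 genes and 110 of the 164162 probe sets with a single symbol, in a table of 13378 genes. All 24 probe sets of Tf, the iron carrier transferrin, carried the symbol Srprb as well, so no value is given for Tf. Ftl1, the ferritin light chain, stood in the platform annotation under its older symbol Ftl. The genes were named with the comparison of injured and naive tissue already known, so their values in that comparison are a description, given with no p-value.

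RNA came from the L5 dorsal root ganglion (DRG) of male Wistar rats, where the somata of sensory neurones lie wrapped in satellite glia, among Schwann cells, blood vessels and macrophages. Unoperated (naive) ganglia were compared with ganglia collected 7 days after the L5 spinal nerve had been cut (spinal nerve transection, SNT), a model of neuropathic pain. Each of the 6 samples, 3 naive and 3 SNT, was a pool of ganglia from 4 animals, so the spread between samples is a spread between pools. Polyadenylated RNA was hybridised to exon arrays, on which a probe set covers about 1 exon, and values are log2 intensities in which a difference of 1 is a doubling.

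Hepcidin, the product of Hamp, is a peptide hormone known mainly from the liver. It binds ferroportin (Slc40a1), the iron exporter of the cell membrane, and has it degraded, so that iron stays inside the cell. Bone morphogenetic protein (BMP) signals through SMAD proteins and interleukin 6 (IL-6) through STAT3 are known to drive Hamp transcription in hepatocytes, and macrophages, which digest dead cells and debris, free iron from heme with Hmox1 and hold it in ferritin.

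Hamp was higher on every SNT array. The gene level was 6.72, 6.21 and 6.68 on naive arrays 1 to 3 and 9.46, 9.96 and 10.76 on SNT arrays 1 to 3. The groups lay far apart, and the lowest SNT pool stood above the highest naive pool. The log2 fold change (log2 FC, SNT minus naive) was 3.53 ± 0.32 (SE, n = 3 per group), an 11.5-fold rise, and it ranked as the rise number 10 among the 13378 genes. Against the naive mean, SNT 1 was higher by 2.92, SNT 2 by 3.43 and SNT 3 by 4.23 on the log2 scale, so the pools differed in the size of the rise and not in its direction.

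The rise was seen in each of the 4 Hamp probe sets, with log2 FCs of 2.79 to 4.86. Probe set 6655870, with the largest difference, read 6.89, 7.10 and 6.87 in naive ganglia and 11.64, 11.56 and 12.25 after SNT. Probe set 6429615 read 5.35, 4.13 and 5.35 in naive ganglia and 8.20, 8.81 and 9.65 after SNT. Its naive values lay close to or under 5.11, the percentile 25 of all probe set means, which is used here as a background level. The other pair, 5646973 and 6008883, had log2 FCs of 2.79 and 3.13.

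**Figure D1:**
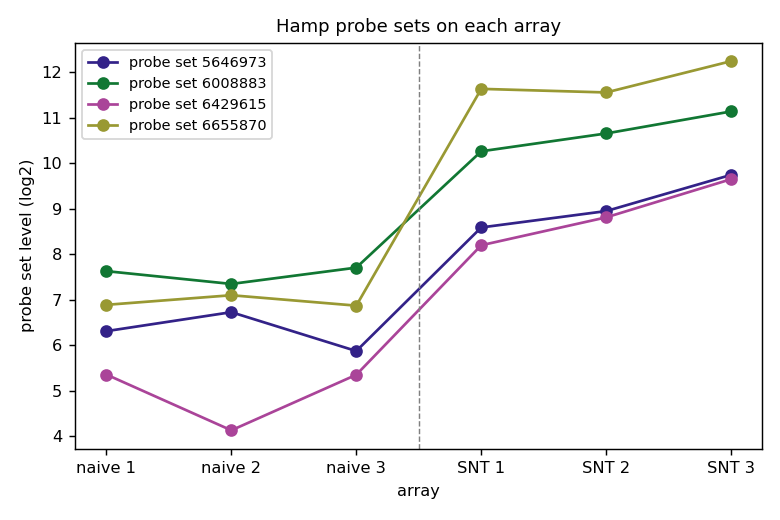
Log2 level (y axis) of the 4 Hamp probe sets on each of the 6 arrays (x axis, naive arrays left of the dashed line, SNT arrays right of it); lines join the values of a probe set and imply no order of the pools. Every probe set was higher on each SNT array than on any naive array, with log2 FCs between 2.79 and 4.86.

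The Hamp promoter is shown because the BMP and IL-6 signals described above are known to act on it. RefSeq promoter windows (rat build GRCr8, 250 bases before to 50 after the start site) were at hand for 6 of the 10 genes: Hamp, Slc40a1, Tfrc, Slc11a2, Tf and Cp. The Hamp window lies on the minus strand of chromosome 1, chr1:95300222-95300521, and capitals mark matches, from left to right, to the BMP response element core GGCGCC, the STAT site TTCNNNGAA and the AP-1 site TGANTCA.
Hamp promoter: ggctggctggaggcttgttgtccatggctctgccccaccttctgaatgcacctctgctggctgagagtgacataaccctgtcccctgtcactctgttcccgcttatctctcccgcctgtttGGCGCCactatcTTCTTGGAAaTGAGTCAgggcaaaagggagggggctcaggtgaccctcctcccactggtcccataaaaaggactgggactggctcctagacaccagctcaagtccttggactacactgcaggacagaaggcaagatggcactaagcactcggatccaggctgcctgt

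The matches began 129, 117 and 107 bases before the start site, with no overlap between them. Both strands of all windows were searched. Of 33469 rat promoter windows of this length, 11% held GGCGCC, 8.87% TTCNNNGAA and 7.33% TGANTCA, and 7 windows (0.0209%) held all of these motifs together. The joint share was counted for the motifs marked in Hamp, so it describes that window and is no test. In the Tfrc window GGCGCC lay 118 bases before the start and the hypoxia response element core ACGTG, found in 19.3% of windows, lay 31 bases before it. The antioxidant response element core TGACNNNGC, present in 12.1% of windows, had no match in the windows of the 6 genes. Fth1, Ftl1, Hmox1 and Hfe had no window, so they were not searched. A match describes letters in a window and says nothing of binding in these ganglia.

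Slc40a1, the gene of the exporter that hepcidin acts on, had a lower mRNA level after SNT. Hepcidin acts on the ferroportin protein, which was not measured here. Slc40a1 mRNA read 7.59, 7.56 and 7.64 in naive ganglia and 6.74, 7.04 and 6.89 after SNT, with no overlap. The log2 FC was -0.70 ± 0.10 (SE), a 1.63-fold lower level. All 13 probe sets had a negative log2 FC, between -1.14 and -0.14, and the groups did not overlap in 8 of them. Of all probe sets on the array 32.4% had groups that did not overlap, 12.7% with SNT higher and 19.8% with SNT lower. At a false discovery rate of 0.1 over all probe sets, limma called 6 of the 13 lower, beside 10.7% of all probe sets. Probe set 6426310 showed the largest difference, from 6.18, 6.36 and 6.83 to 5.29, 5.65 and 5.01. In 5657990, with the smallest, the groups overlapped (7.49, 7.34 and 7.47 against 6.85, 7.46 and 7.57).

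Ceruloplasmin (Cp), a copper ferroxidase that oxidises exported iron so that transferrin can bind it, was higher. Naive pools read 8.06, 7.70 and 8.18 and SNT pools 8.71, 9.35 and 9.28. SNT 1 was the lowest of the SNT pools and still stood above each naive pool. The log2 FC was 1.13 ± 0.20 (SE), a 2.19-fold rise. Of 23 probe sets 22 had a positive log2 FC, with a median of 1.07 and a largest value of 1.51. The exception was 5769395 at -0.38, whose mean lay under the background level. The groups did not overlap in 16 of the 23, with SNT higher, beside 12.7% of all probe sets. Limma called 16 higher, beside 5.16% of all probe sets.

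Tfrc, the receptor through which cells take up transferrin-bound iron, showed the largest decrease among the 9 genes. Its level was 9.24, 9.33 and 9.20 in naive pools and 8.03, 8.30 and 8.36 in SNT pools. Every SNT pool lay under every naive pool, with a log2 FC of -1.02 ± 0.11 (SE), a 2.03-fold lower level. All 21 probe sets had a negative log2 FC. The median was -0.99 and 20 of the 21 had no overlap between groups, the exception being 6262138 at -0.09. Limma called 20 lower. Of all probe sets 19.8% had no overlap with SNT lower and 10.7% were called lower. Probe set 6197333 had the steepest difference, from 8.12, 7.55 and 8.07 to 5.66, 5.35 and 5.77.

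Slc11a2, the transporter DMT1 that carries iron into the cytosol from the endosome, read 7.60, 7.50 and 7.66 in naive ganglia and 7.45, 7.47 and 7.75 after SNT. The groups overlapped and the log2 FC was -0.03 ± 0.11 (SE). Its 23 probe sets went both ways, 15 with a negative and 8 with a positive log2 FC. The groups did not overlap in 3 with SNT higher and 3 with SNT lower, beside 12.7% and 19.8% of all probe sets. A single probe set, 6120542, passed the threshold, with 7.76, 7.45 and 7.88 in naive pools against 5.81, 6.47 and 7.05 in SNT pools (log2 FC -1.25). At the other end, 6486039 read 9.46, 9.30 and 9.40 against 10.06, 9.60 and 9.75 (log2 FC 0.42). Which transcripts these probe sets report was not tested.

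Hfe, a membrane protein that binds the transferrin receptor and takes part in iron sensing in the liver, read 6.66, 6.56 and 6.57 in naive ganglia and 6.70, 6.72 and 6.60 after SNT. The groups overlapped, with a log2 FC of 0.08 ± 0.09 (SE). None of its 5 probe sets passed the threshold, their log2 FCs ran from -0.23 to 0.32, and the means of 2 lay under the background level. The groups did not overlap in 1 with SNT higher and 1 with SNT lower, beside 12.7% and 19.8% of all probe sets.

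The ferritin genes, whose heavy (Fth1) and light (Ftl1) chains form the shell that stores iron, differed from each other. Fth1 read 13.31, 13.20 and 13.30 in naive ganglia and 13.26, 13.23 and 13.30 after SNT, a log2 FC of -0.0039 ± 0.08 (SE). The pools of both conditions fell in a single narrow range. The 4 Fth1 probe sets above the background level read between 12.99 and 13.87, near the top of the table, whose highest value was 14.35, and whether their response was compressed there was not tested.

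Ftl1 read 12.16, 12.08 and 12.17 in naive ganglia and 12.52, 12.75 and 12.72 after SNT. Every SNT pool stood above every naive pool, with a log2 FC of 0.53 ± 0.10 (SE), a 1.44-fold rise. All 10 probe sets had a positive log2 FC, between 0.25 and 0.81, and 9 had no overlap. Limma called 4 of the 10 higher. Of all probe sets 12.7% had no overlap with SNT higher and 5.16% were called higher. Ferritin genes have near-identical copies in the rat genome, and the gene table lists a further locus with Ftl1 as a synonym, so the share of the Ftl1 signal that comes from such copies is uncertain.

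Hmox1, heme oxygenase, which opens the heme ring and frees its iron, was the most uneven of the genes. Naive pools read 6.96, 6.90 and 6.96, while SNT pools read 6.73, 8.16 and 7.19. SNT 2 was well above the rest and SNT 1 lay below all naive pools. The log2 FC was 0.42 ± 0.32 (SE) with all arrays, 0.04 without SNT 2 and 0.71 without SNT 1. The macrophage markers described below were also highest in SNT 2 and, among SNT pools, lowest in SNT 1, and their part in this spread was not tested. All 6 probe sets had a positive log2 FC, from 0.12 to 0.91, and the groups did not overlap in 2, beside 12.7% of all probe sets with SNT higher. Only 6223462, with the largest log2 FC, passed the threshold. Its naive values, 5.04, 4.66 and 5.62, lay close to the background level of 5.11.

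**Figure D2:**
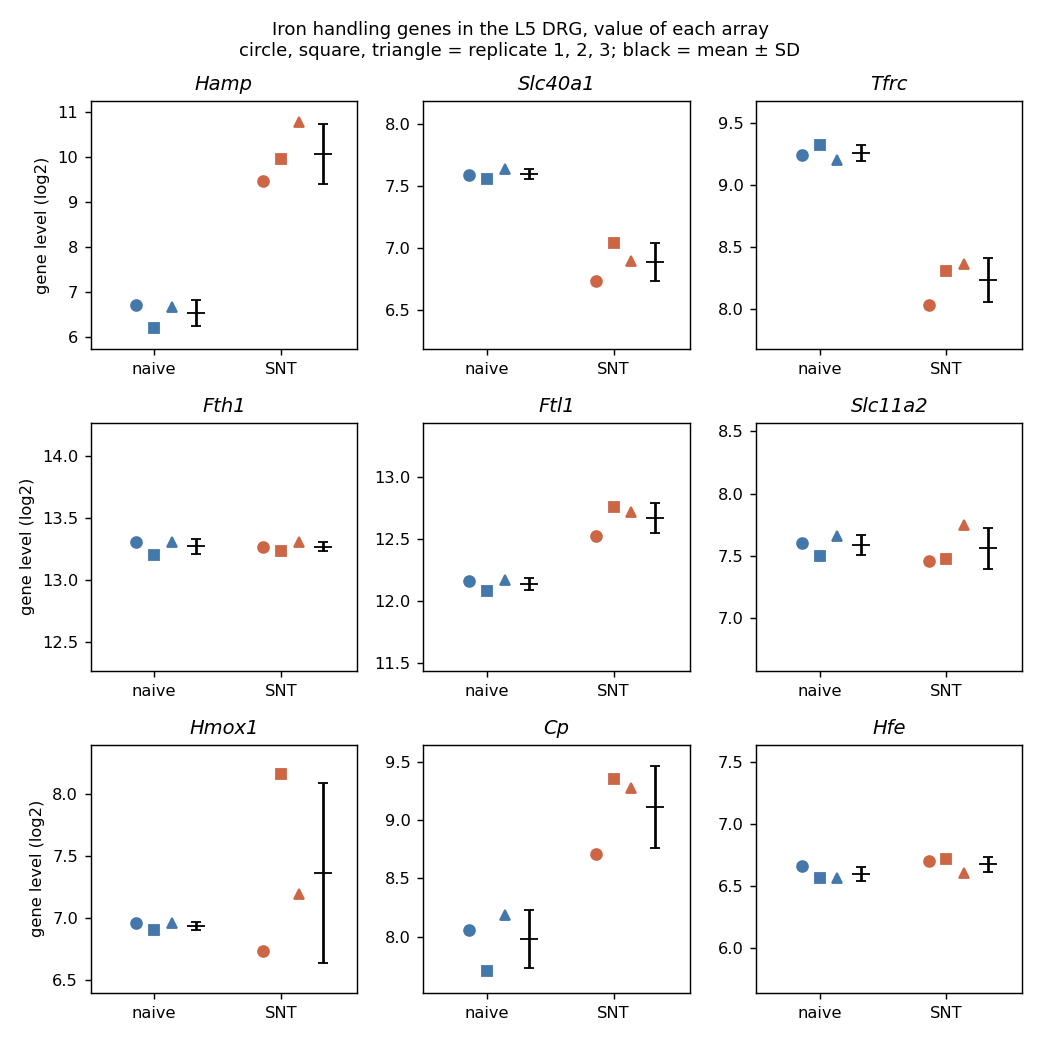
Log2 gene level (y axis) of the 9 measured iron genes on each array, 1 panel per gene; coloured points are arrays, black bars are group means ± SD, and the y axes differ between panels. Hamp, Cp and Ftl1 were higher and Slc40a1 and Tfrc lower on every SNT array than on any naive array, while the groups overlapped in Fth1, Slc11a2, Hmox1 and Hfe.

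Across the 9 genes, 3 were called higher (Hamp, Cp and Ftl1), 2 lower (Slc40a1 and Tfrc) and 4 neither way by limma at a false discovery rate of 0.1 over all genes. Of all genes 12.9% were called higher and 23.3% lower, and nothing is read from the count of these genes because the comparison was known when they were named. The same 5 genes had groups that did not overlap, as did 45.7% of all genes (16.8% with SNT higher and 28.9% with SNT lower). The median log2 FC was 0.08 over the 9 genes and -0.02 over all genes. Of the 110 probe sets 25 were called higher and 27 lower, beside 5.16% and 10.7% of all probe sets, and 7 had means under the background level. The calls of Hamp and Tfrc were kept in all 15 other settings tried. Those of Slc40a1, Cp and Ftl1 were kept in 14 and were lost when a gene was represented by its most variable probe set, which in Slc40a1 was 5822213, under the background level on average, with a log2 FC of -1.04. In that setting Slc11a2 was called lower, with a log2 FC of -1.25.

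**Figure D3:**
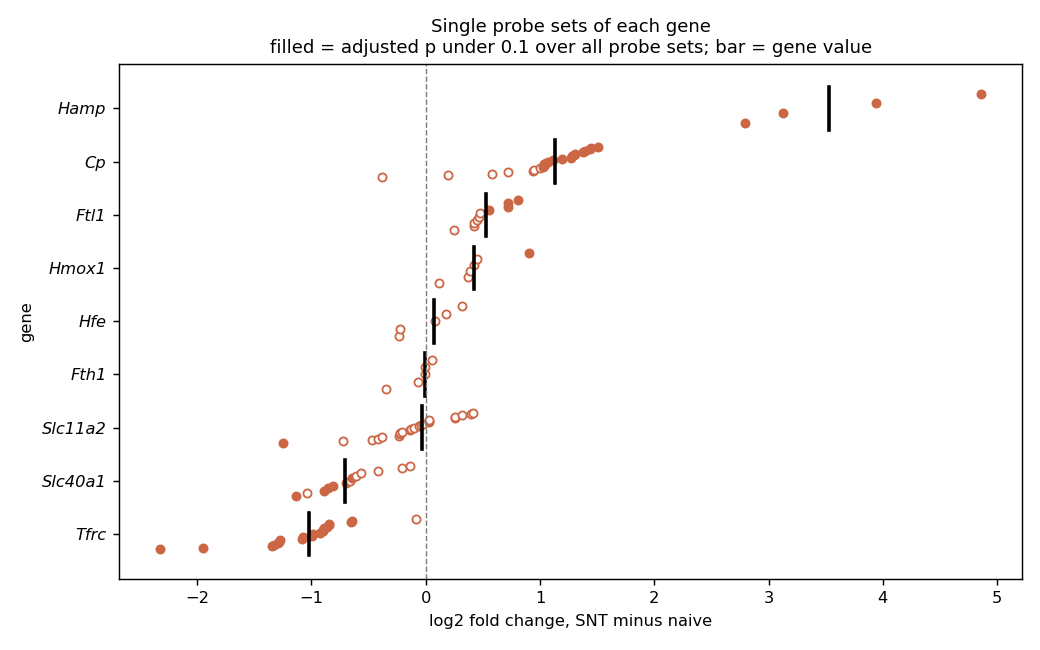
Log2 FC, SNT minus naive, of each probe set of the 9 genes, 1 line of points per gene, with called probe sets filled and a bar at the gene value. All probe sets of Hamp (4), Ftl1 (10) and Hmox1 (6) lay above 0 and all of Slc40a1 (13) and Tfrc (21) below it, whereas those of Slc11a2 (23) fell on both sides.

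Arrays of the naive group correlated with each other at r of 0.984 to 0.986 and those of the SNT group at 0.958 to 0.969. SNT 1 stood nearer to the naive arrays (0.955 to 0.960) than SNT 2 and SNT 3 did (0.938 to 0.947). Without SNT 1 the log2 FCs were 3.70 for Hamp, 1.31 for Cp, 0.60 for Ftl1, -0.62 for Slc40a1 and -0.87 for Tfrc.

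Macrophage and sensory neurone markers moved with the injury, and levels of marker lists are given as sums on the linear scale over a list. Beside the marker counts, 12.9% of all genes were called higher and 23.3% lower. All 15 measured macrophage markers rose, with a median log2 FC of 1.46. The groups did not overlap in 13 of them, with SNT higher, beside 16.8% of all genes. The summed level of these markers was 4053 to 5596 in naive pools and 9567, 17520 and 13870 in SNT 1 to 3. The number called higher fell to 10 if naive 1 or naive 2 was dropped, and to 12 for naive 3. It was 11 on dropping SNT 3, 13 for SNT 2 and still 15 for SNT 1. Representing each marker by its most variable probe set gave 12. Of 12 sensory neurone markers 9 fell, and their sum was 54535 to 57290 in naive pools against 29550 to 42722 after SNT. Of 13 Schwann cell and myelin markers 5 rose (22540 to 28673 against 24288 to 28220). Of 8 satellite glia markers 2 rose and 4 fell (14620 to 15091 against 13024 to 15543). Of 7 endothelial markers 1 rose (2018 to 2279 against 2367 to 2775), and the list median log2 FC was 0.07. The counts of the Schwann cell, satellite glia and endothelial lists rested on single arrays too. Schwann cell rises numbered 1 without naive 1, naive 2 or SNT 2 and 2 without SNT 3, and 2 of these markers were called lower without naive 2. Satellite glia rises numbered 1 without naive 2 and falls 2 without naive 1, and the endothelial rise was lost without naive 1, naive 2 or SNT 3. In bulk tissue fewer cells of a type and less RNA per cell cannot be told apart, and the part of these shifts in the iron genes was not tested.

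Hepatocytes, the main source of hepcidin in the body, and red cell precursors, which take up much iron, were looked for as well. Of 17 measured hepatocyte markers 8, among them albumin (Alb), Apob, Fga and Fgg, lay under the background level on every array. The list summed to 606 to 642 in naive pools and 733 to 780 after SNT. Limma called 2 markers higher, Apoh and Serpina1, and 0 lower, beside 12.9% and 23.3% of all genes. With array weights 3 were called higher and 1 lower, and without SNT 3 the rises numbered 3. Also called lower was 1 marker with the mean of the probe sets, the most variable probe set or only probe sets above background. The number of falls was 1 too with the replicate number as a block or without naive 2. The list median log2 FC was 0.0056 and its lowest value -0.79, so the sum does not describe the list as a whole. Of 7 erythroid markers none rose and 2 fell, beside 12.9% and 23.3% of all genes. Their sums were 23844 to 25758 in naive pools against 18818 to 26164 after SNT. Neither fall was called without naive 1, naive 2, naive 3 or SNT 2, nor with the most variable probe set. Without SNT 1, 1 was called.

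Genes of hepcidin's known upstream signals, and genes listed with them, come next, counted over lists grouped by function. The lists were drawn up with earlier results of these data known, so their counts and the limma p-values of their genes describe these arrays and are no independent evidence of a direction. In the IL-6 and STAT3 arm 18 of 19 genes were measured, and 11 rose, 1 fell (Jak1) and 6 did not pass the test, where 12.9% of all genes rose. The list median was 0.36. Atf3 was counted in the list as drawn up and had its highest log2 FC, 3.73, and no role of Atf3 in driving Hamp is claimed. The genes that rose were the cytokines Il6, Lif and Il1b, the receptors Il6r and Osmr, the kinase Jak2, Stat3, its feedback inhibitor Socs3, and the transcription factors Cebpa, Cebpb and Atf3. On leaving out naive 2 or SNT 3 the rises numbered 5. They were 6 when naive 1 or naive 3 was omitted and 7 when SNT 2 was. Jak1 was no longer called without naive 1 or naive 3, with median centring, with the replicate number as a block or with the most variable probe set.

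Il6 read 4.00, 4.20 and 4.64 in naive ganglia and 6.05, 6.18 and 6.72 after SNT. All naive values lay under the background level and all SNT values above it, with a log2 FC of 2.03 ± 0.22 (SE, limma adjusted p = 0.00212). Socs3 rested on 1 probe set, which read 5.25, 6.97 and 6.56 against 7.85, 8.56 and 8.53 (log2 FC 2.05 ± 0.43, limma adjusted p = 0.0122). Its naive pools were spread more widely than its SNT pools.

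Lif, a cytokine of the IL-6 family, read 6.30, 6.74 and 6.77 in naive ganglia against 7.05, 8.40 and 7.84 after SNT. The groups did not overlap, but SNT 1 stood close to the naive pools. The log2 FC was 1.16 ± 0.32 (limma adjusted p = 0.0345), and the call was lost on leaving out any array but SNT 1, with adjusted p of 0.108 to 0.173. Atf3, an injury-induced transcription factor of sensory neurones, read 7.87, 7.68 and 7.77 against 11.34, 11.52 and 11.66, a log2 FC of 3.73 ± 0.11 (limma adjusted p = 3.3e-05).

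In the BMP and SMAD arm 21 of 24 genes were measured, of which 5 rose, 3 fell and 13 were called neither way. The list median was 0.10, and of all genes 12.9% rose and 23.3% fell, 36.3% in all. Smad9, a receptor-activated SMAD, fell from 8.22, 8.42 and 8.03 to 6.79, 5.36 and 5.39. SNT 1 kept a higher level than the other SNT pools, and the log2 FC was -2.38 ± 0.37 (limma adjusted p = 0.00473). The other falls were in the ligand Bmp6 (log2 FC -0.77), the main BMP inducer of hepcidin in the liver, and the receptor Bmpr1b (-0.50). The rises were in Smad1 (0.80), Id2 (0.71), Smad5 (0.58), the shared partner Smad4 (0.48) and the receptor Acvr1 (0.45). Hjv, the BMP co-receptor of hepcidin control, had a log2 FC of 0.11 and Tmprss6, the protease that cuts it, 0.22, and neither passed the test. Rises numbered 3 without naive 1, SNT 2 or SNT 3, and the list median was -0.02 without naive 1.

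Other genes of uptake and export were measured for 18 of 23, and 4 rose, 2 fell and 12 did not pass, beside 12.9% and 23.3% of all genes, with a median of 0.11 (0.05 without naive 2). The ferrireductases of the Steap family went different ways. Steap3, which reduces endosomal iron for Slc11a2 in red cell precursors, fell from 8.19, 8.24 and 8.16 to 7.60, 7.32 and 7.33 (log2 FC -0.78 ± 0.11, limma adjusted p = 0.00335). Steap1 rose from 6.08, 5.97 and 5.95 to 6.43, 7.09 and 6.72 (0.74 ± 0.17, adjusted p = 0.0154), a call that was lost without naive 1, naive 3 or SNT 3 and with its most variable probe set. Steap2 (0.71), the scavenger receptor Lrp1 (0.65), which takes up heme bound to hemopexin, and the ferritin receptor Scara5 (0.61) also rose, and Slc22a17 (-0.54), a receptor of lipocalin 2, fell. Without naive 1 the list held 2 rises and 3 falls, and without naive 2 it held 1 fall. The ferroxidase Heph, related to Cp, had a log2 FC of 0.24 and did not pass.

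Iron regulatory proteins bind a stem-loop in ferritin and Tfrc mRNA and set ferritin translation and Tfrc mRNA stability by the iron level of the cell. Of 10 genes of this control and of ferritin handling 9 were measured, and limma called 0 of them, where 36.3% of all genes were called. At an unadjusted p under 0.05 the count was 0 as well. Their log2 FCs ran from -0.24 for Ireb2 to 0.28 for Aco1, the iron regulatory proteins themselves. The ferritin autophagy receptor Ncoa4 was at -0.21. With cyclic loess scaling or with median centring 2 were called higher, and with array weights or without SNT 1 the number was 1. With the mean of the probe sets, the most variable probe set or SNT 3 left out, 1 was called lower instead.

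In heme synthesis and breakdown 11 of 16 genes were measured, and 1 rose, 6 fell and 4 did not pass, beside the 12.9% and 23.3% of all genes. The list median was -0.27, and -0.17 without SNT 1. The rise was in Tspo, an outer mitochondrial membrane protein that binds porphyrins, from 6.29, 6.50 and 6.50 to 7.16, 7.98 and 7.77 (log2 FC 1.21 ± 0.21, limma adjusted p = 0.00623). Falls were seen in Hmox2, the constitutive heme oxygenase (-0.65), biliverdin reductase Blvra (-0.58), the synthesis enzymes Alad (-0.46), Uros (-0.43) and Urod (-0.41), and the transporter Abcb6 (-0.27).

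Genes of mitochondrial iron and iron-sulphur clusters were measured for 16 of 25, and 11 fell and 5 did not pass, where 23.3% of all genes fell. The median log2 FC was -0.39. Bola3, which helps deliver clusters to mitochondrial enzymes, fell from 10.76, 10.97 and 10.75 to 10.02, 9.78 and 9.90 (log2 FC -0.92 ± 0.11, limma adjusted p = 0.00243). The scaffold Iscu (-0.77) and Isca1 (-0.71) had the next falls. There were 7 falls without naive 1 and 7 with median centring, where 1 gene was called higher. The sum of the sensory neurone markers was lower in the same pools, and its part in these falls was not tested.

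Free iron drives lipid peroxidation, and 19 of 21 antioxidant and ferroptosis genes were measured, of which 3 rose, 7 fell and 9 did not pass, beside the 12.9% and 23.3% of all genes. The list median of -0.21 was -0.02 without SNT 1 and -0.31 without SNT 3. Gclm, a subunit of the enzyme that limits glutathione synthesis, fell from 9.42, 9.39 and 9.40 to 8.34, 7.95 and 8.29 (log2 FC -1.21 ± 0.12, limma adjusted p = 0.00176). Nqo1 (-0.87), Me1 (-0.78), Gpx4 (-0.73), which reduces lipid peroxides, Keap1, Gsr and Gclc also fell. The rises were in Bach1 (0.90), a heme-binding repressor of Hmox1, Acsl4 (0.67), which loads polyunsaturated fatty acids into lipids, and Srxn1 (0.35).

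Over these lists together 112 of 138 genes were measured, of which 24 rose, 30 fell and 58 did not pass, beside 36.3% of all genes called in either direction, and the median log2 FC was 0.01. Of the 112 genes 14 rose without naive 1 or without SNT 3. The split moved with the scaling, to 33 rises and 25 falls with cyclic loess and 36 and 24 with median centring.

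**Figure D4:**
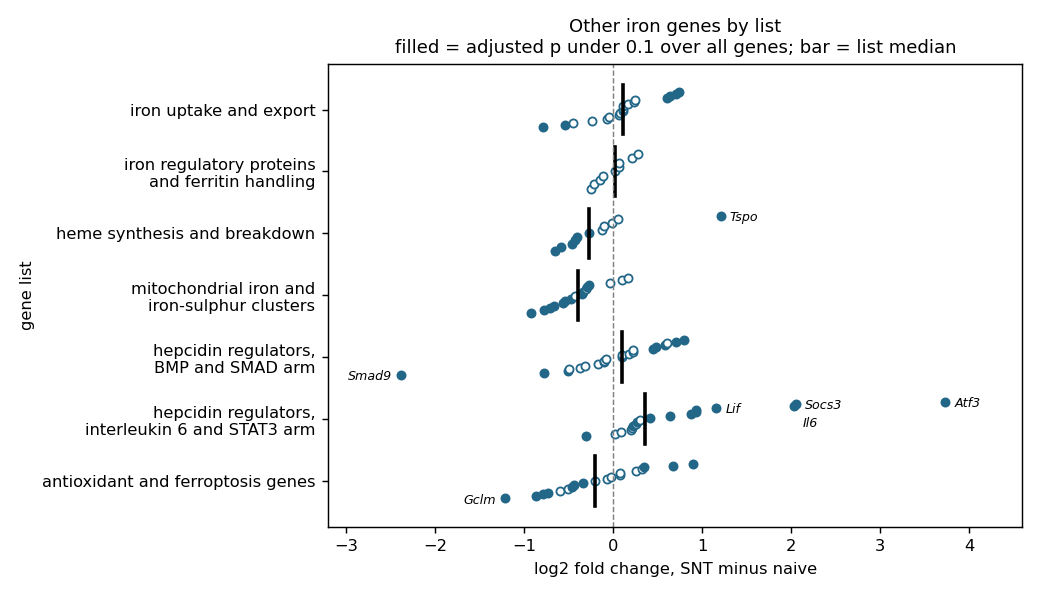
Log2 FC, SNT minus naive (x axis), of the 112 measured genes of the 7 lists (y axis). Filled points passed an adjusted p of 0.1 over all genes and bars are list medians. The medians ran from -0.39 for mitochondrial iron to 0.36 for the IL-6 and STAT3 arm, and named genes had a log2 FC of 1 or more in size.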

How the data were processed

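For 226599 probe sets on 6 arrays the authors deposited log2 intensities, made with oligo by RMA, which corrects background, normalises arrays to common quantiles and summarises the probes of a probe set by median polish. Their versions were not given in the sources used here. Quantile normalisation makes a change relative to the whole array, and no scan date or batch was named. The array medians of the deposited values were still 6.93 to 6.98 in naive pools and 6.77 to 6.88 in SNT pools. Median centring, among the alternatives below, removes this offset. Probe sets were named from the platform annotation (164162 with 1 symbol, 2388 with several, 60049 with none), and 13365 of 13411 symbols matched the GRCr8 gene table. Values were combined per gene by median polish (at most 20 iterations). SNT was compared with naive by limma 3.58.1 in R 4.3.3 (lmFit, eBayes, group as the only term, two-sided, Benjamini-Hochberg over all genes, false discovery rate 0.1), and SEs are limma's. The fit was tested on simulated data. The series text counts the pools as biological replicates, and 3 arrays per group limit the precision.

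The members and lists were chosen with earlier results of these data known. Named genes were all members, called list genes with an absolute log2 FC of 1 or more (otherwise the largest rise and fall), and the 5 genes most like Hamp. Other list genes named were chosen after their values were seen. Alternatives covered the false discovery rate, variance model, array weights, scaling (cyclic loess with 3 iterations, median centring), probe set summary and filter, the replicate number as a block and fits without each array in turn.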

Additional observations from a re-analysis of the deposited data

How the results depend on the processing

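Fold changes were recomputed under each alternative for the 9 measured iron genes first named and for the 10 list genes given with a p-value, and no called one changed sign. Of 13378 genes 1731 were called higher and 3120 lower. Calls of higher genes numbered 3074 with median centring, 722 with the most variable probe set per gene, and 760 to 2629 with 1 array left out, and lower genes 1975 to 3235. Median centring moved the median log2 FC of all genes from -0.02 to 0.09 and the lower calls to 2397, and cyclic loess gave 2380 higher and 2784 lower. Of the probe sets, 11699 were called higher and 24318 lower. At a false discovery rate of 0.05 these were 6100 and 15421, median centring gave 18895 higher, and leaving out an array gave 3474 to 20650 higher and 9424 to 27400 lower. Of the iron genes first named, 1 in place of 3 was called higher with the most variable probe set. Of the list genes 10 rose with that summary, and 14 to 31 with an array left out. By list, the most variable probe set gave 5 rises in the IL-6 and STAT3 arm, 2 in the BMP and SMAD arm, 2 in uptake and export and 0 among antioxidant genes, with 3 falls in heme and 4 in mitochondrial iron genes. Median centring and array weights gave 5 rises among antioxidant genes, and median centring and the mean of probe sets gave 8 in the BMP and SMAD arm. Deviations of same-numbered pools of the 2 groups had r of -0.07, -0.22 and 0.06, and those of differently numbered pools -0.23 to 0.29. From 3 arrays per group it cannot be decided whether the replicate numbers pair the samples. With the replicate block 7573 probe sets and 1447 genes were called higher and 7 in place of 11 genes of mitochondrial iron fell, while the 5 calls among the first-named iron genes stayed. With 3 arrays per group, a log2 FC that missed the threshold does not show an equal level, and dim probe sets near 5.11 may understate a change.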

Other observations

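The genes whose level followed that of Hamp most closely over the 6 arrays were found from the root mean square (RMS) difference of each gene's deviations from its own naive mean, on the log2 scale. The closest was Gal, the neuropeptide galanin, at 0.29, with 8.75, 8.45 and 8.33 in naive ganglia and 11.93, 11.95 and 12.45 after SNT. Serpina3n, a secreted protease inhibitor, followed at 0.33 and rose from 5.48, 5.74 and 5.82 to 8.96, 9.58 and 9.96. Both were highest in SNT 3, as Hamp was. Atf3 (RMS difference 0.35), the granule protease Gzmb (0.45) and the macrophage-expressed glycoprotein Gpnmb (0.51) completed the 5. Gpnmb differed in its order, with its highest level, 11.96, in SNT 2. The measure rests on 6 arrays and is dominated by the size of the rise, so genes with a log2 FC near 3.53 come first, and the log2 FCs of these 5 genes ran from 3.29 for Gzmb to 3.82 for Gpnmb.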
